A study of Mus musculus with 6 samples.

Results

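The phosphoinositide kinases, phosphatases and AKT kinases of the mouse eye are described here as a set of 44 genes, chosen by symbol from the enzymes that add phosphate to or remove it from phosphatidylinositol, with 3 protein kinases that act next. All 44 symbols were found among the 22692 of the deposited tables. Whole-eye RNA of C57BL/6J mice, an inbred laboratory strain, was sequenced 9.0 h after light onset and 1.5 h after light onset, with 3 libraries at each time. Per the labels, all animals were female and 4 weeks old, and each library was made from the pooled RNA of 5 of them. No treatment or altered allele is named. Whether the 3 pools of a time came from separate animals is not stated. The p-values therefore describe only how far these libraries spread, and some of that spread may be technical. The comparison addresses which eye transcripts differ between the morning, when pigment epithelium takes up the tips of photoreceptor outer segments, and the later day.

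Phosphoinositides are membrane lipids whose inositol ring carries phosphate at different positions, and each pattern marks a membrane. Class I phosphoinositide 3-kinases (PI3K) answer growth factor receptors at the plasma membrane, and their lipid product recruits PDK1 and AKT, which promote survival and growth. The class III kinase and PIKfyve act on endosomes and phagosomes, where their lipids steer the maturation of engulfed material, and phosphatases return each lipid to its precursor. In the eye these lipids serve outer segment uptake by pigment epithelium, synaptic vesicle recycling and the clear lens, and human mutations in OCRL and INPP5E affect lens and retina.

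Values are in RPKM, reads scaled to the length of the gene model and to the reads of the library, so levels can be compared between genes. Read totals recovered from the steps between low values were 31800000, 29860000 and 24030000 at 9.0 h and 28920000, 12700000 and 13000000 at 1.5 h. A 2 kb transcript at 1 RPKM was thus covered by 25.4 to 63.6 reads, and 3 reads, the limit that a count of 0 allows, equal 0.047 to 0.118 RPKM, counting error only. Across genes, Pearson's r between the log2 values of any pair of libraries was 0.948 to 0.989, a description, since genes are not independent replicates. Of 46 markers fixed for lens, rods, pigment epithelium, stroma, muscle, corneal epithelium and blood or immune cells, 44 had at least 1 RPKM in every library and none was at 0 throughout. One library stood apart: in 1.5 h replicate 1 the 8 lens markers summed to 28002 RPKM, against 51460 and 56800 in the other 1.5 h libraries. Its stroma and sclera markers, at 745.6 RPKM against 1509 and 1268, and its skeletal muscle markers, at 734.3 RPKM against 1421 and 1164, were low as well. In 1.5 h replicate 3, labelled female like the rest, the Y-linked genes Ddx3y, Uty, Kdm5d and Eif2s3y had 0.479, 0.205, 0.126 and 0.78 RPKM, and the remaining 5 libraries had 0 for each of the 4.

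The eye expressed nearly the whole set, and no member differed between the times by the test across all genes. Akt1 and Akt2 had their highest values at 9.0 h, while the endosomal enzymes Mtmr6 and Pikfyve and the regulatory subunit Pik3r1 had their lowest there. Of the 44 members, 40 reached 1 RPKM in at least 3 libraries and were tested with limma on log2(RPKM + 0.1), a scale on which folds of low genes are understated. None was called at a Benjamini-Hochberg adjusted p of 0.05 over 13490 genes, of which 0.222% were called (0.148% higher and 0.0741% lower at 9.0 h), and the smallest adjusted p was 0.264. At an unadjusted p of 0.05, 3 of the 40 passed (7.5%), against 11.1% of all tested genes. In 5 of the 40 (12.5%) the libraries did not overlap between the times, against 18.2% of all tested genes. Of these 5, 2 were higher and 3 lower at 9.0 h, where 9.78% and 8.41% of all tested genes were. None of these shares exceeded its background. Without 1.5 h replicate 1, 2 members were called higher and 2 lower (9.23% of all tested genes called), and without 1.5 h replicate 3 none was (0.0964%). Without overlap were then 16 members (38.2% of all tested genes) and 9 members (26.1%). The median log2 fold change of the 40, 9.0 h minus 1.5 h, was -0.10, with 14 above 0 and 26 below, and the median of all tested genes was -0.003.

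Intervals of the fold change reflect only the spread between these libraries. For all 40 members the unadjusted 95% interval of the log2 fold change lay within a 2-fold change in either direction, which held for 94.4% of all tested genes. For 26 members it lay within a 1.5-fold change. The lowest bound was -0.73, for Mtmr6, and the highest 0.92, for Akt2. Settings with no called member called 0.0148% to 1.05% of all tested genes, among them 0.111% with quantile normalization, 0.111% with median scaling, 0.0297% without 9.0 h replicate 1 and 1.05% with the replicate number as a block. Smaller differences were not resolved with 3 libraries a time, and a p above the threshold does not show that the times were alike. Many of the small differences rested on 1.5 h replicate 1 or 1.5 h replicate 2. Without 1.5 h replicate 1, 8 members took the other sign, namely Pi4k2b (-0.17), Pip4k2a (-0.13), Pip4k2b (0.01), Pip4k2c (0.03), Inpp5e (0.11), Inpp5k (0.05), Inppl1 (0.06) and Mtmr2 (-0.01 on the log2 scale). Mtm1 moved to -0.46, Sacm1l to -0.32, Pi4kb to 0.40, Pik3r2 to 0.38 and Pik3cd to 0.29, none of them called. Without 1.5 h replicate 2, 8 members also took the other sign. They were Pik3ca (0.03), Pik3c3 (0.02), Pi4ka (-0.06), Pi4kb (-0.045), Pi4k2a (-0.03), Pip5k1a (-0.02), Inpp5k (0.04) and Sacm1l (0.06). Without 1.5 h replicate 3, Pi4ka (-0.01) and Pik3cd (-0.04) took the other sign. A whole eye mixes tissues, so fewer cells of a type and less RNA per cell cannot be told apart in any of these values.

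**Figure D1:**
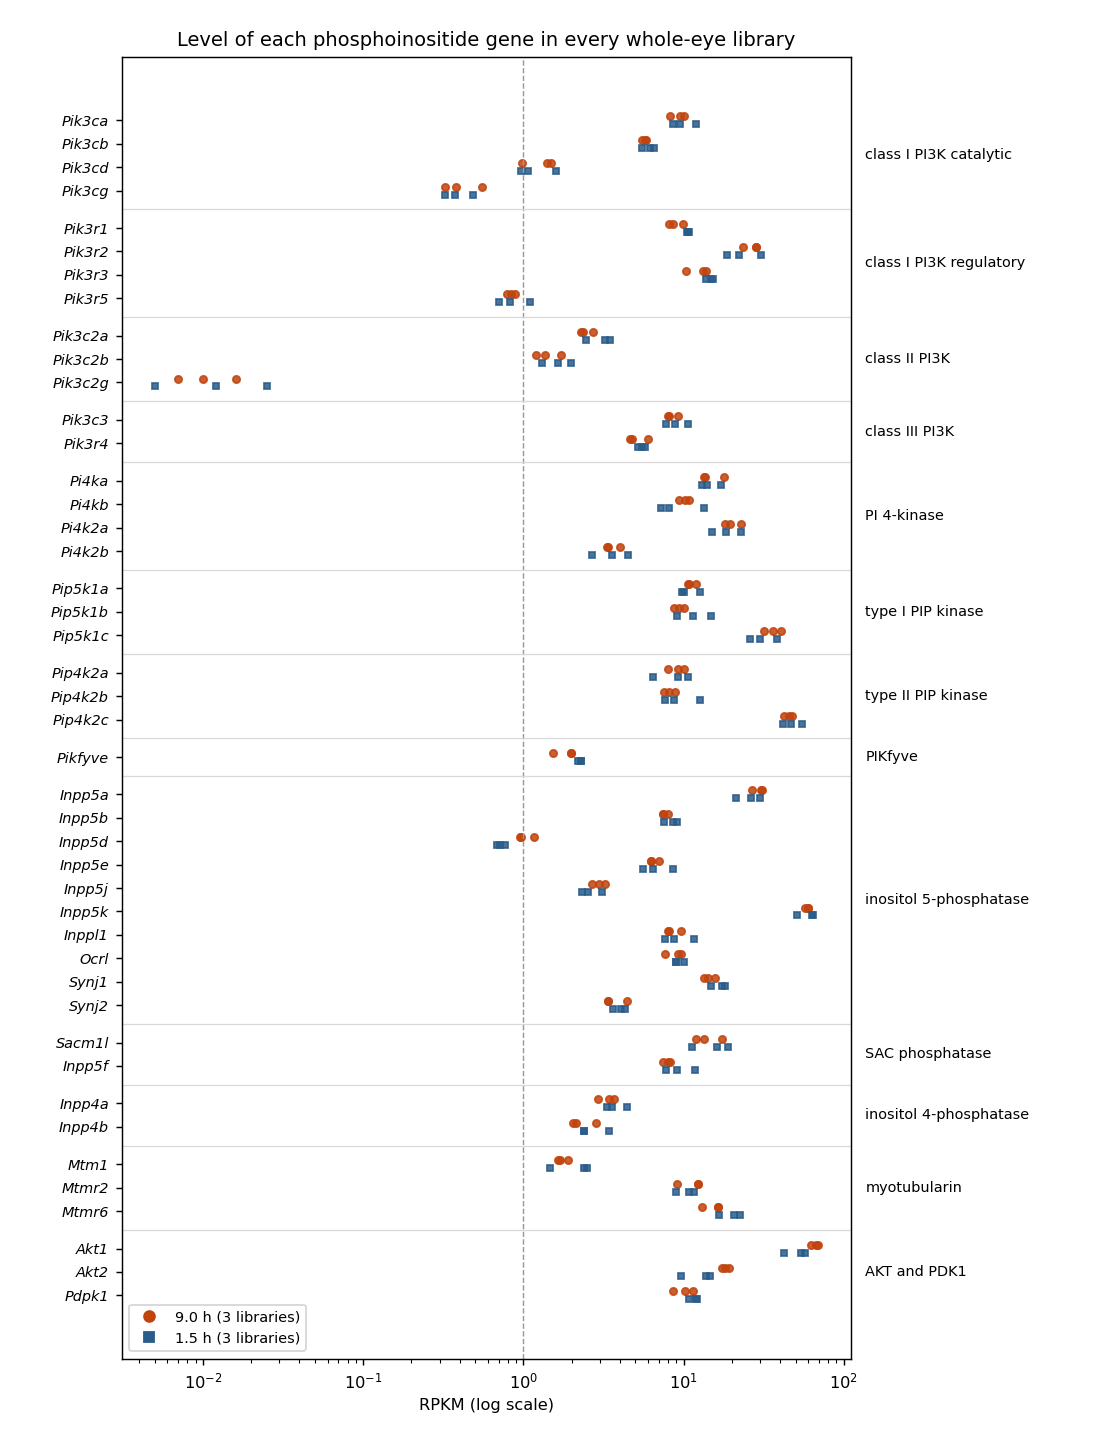
RPKM of each of the 44 members (log scale) in every library, circles for 9.0 h above squares for 1.5 h, grouped by enzyme class. Levels run from at most 0.025 RPKM for Pik3c2g to 68.7 RPKM for Akt1, and the circles and squares of most genes interleave.

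Akt2 and Akt1 had the largest log2 fold changes above 0 among the 40 tested members. Akt1, the most widely expressed AKT isoform, had 68.7, 62.1 and 67.4 RPKM in 9.0 h libraries, against 57.5, 42.2 and 54.1 RPKM in 1.5 h libraries. Akt2, the isoform best known for insulin-regulated glucose uptake, had 19.3, 18.1 and 17.4 RPKM at 9.0 h, against 14.5, 9.68 and 13.7 RPKM at 1.5 h. For both genes every 9.0 h library was above every 1.5 h library, and 1.5 h replicate 2 was the lowest. Akt1 averaged 66.1 ± 3.5 RPKM at 9.0 h and 51.3 ± 8.0 at 1.5 h (SD, n = 3 each), a log2 fold change of 0.38 ± 0.15 (SE) with limma adjusted p = 0.398. Akt2 averaged 18.2 ± 1.0 and 12.6 ± 2.6 RPKM at 9.0 h and 1.5 h, a log2 fold change of 0.55 ± 0.17 with limma adjusted p = 0.264. Without 1.5 h replicate 1 both passed, with 0.46 and 0.66 and limma adjusted p = 0.0443 and 0.00164, in a fit that called 9.23% of all tested genes. Without 1.5 h replicate 2, Akt1 had a log2 fold change of 0.24 and limma adjusted p = 0.52. Akt2 then had 0.37 and limma adjusted p = 0.314, in a fit that called 0.452% of all tested genes. The 8 lens markers were also higher at 9.0 h, at 57677 to 64800 RPKM summed, against 28002 to 56797 RPKM at 1.5 h. Without 1.5 h replicate 1, sums of 51460 and 56800 RPKM were left at 1.5 h. Within each time, replicate 1 had the lowest lens sum and the highest Akt1 and Akt2 values. Between replicates 2 and 3 the order was otherwise. Akt1 was higher in the library with the higher lens sum at both times, and Akt2 at 1.5 h only. The part of lens content in the result was not tested. Transcript GC content also varied with the fold changes, as described further on. Akt2 shares 1449 nt of near-identical sequence with the pseudogene Akt2-ps, and how reads with several matches were treated is not given in the sources used here, so its level is uncertain.

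PDK1, encoded by Pdpk1, phosphorylates AKT once both sit on the membrane. Pdpk1 had 11.5, 10.3 and 8.55 RPKM in 9.0 h libraries, against 11.99, 10.8 and 12.1 RPKM in 1.5 h libraries. The libraries overlapped and the log2 fold change was -0.21 ± 0.15 (limma adjusted p = 0.668). Ratios within a library do not depend on how libraries are scaled to each other. The ratio of Akt2 to Pdpk1 was 1.68, 1.76 and 2.03 at 9.0 h, against 1.21, 0.90 and 1.13 at 1.5 h. The ratio of Akt1 to Akt2 was 3.56, 3.44 and 3.88 at 9.0 h, against 3.96, 4.36 and 3.95 at 1.5 h. Neither ratio overlapped between the times, and Akt2 was higher at 9.0 h relative to both partners, although the Akt1 ratios came within 0.02 of overlap on the log2 scale. No test was run on ratios. Such separation was common: it held for 9 of the 64 ratios between tested members of 1 class (14.1%) and for 19.7% of all pairs of tested genes.

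**Figure D2:**
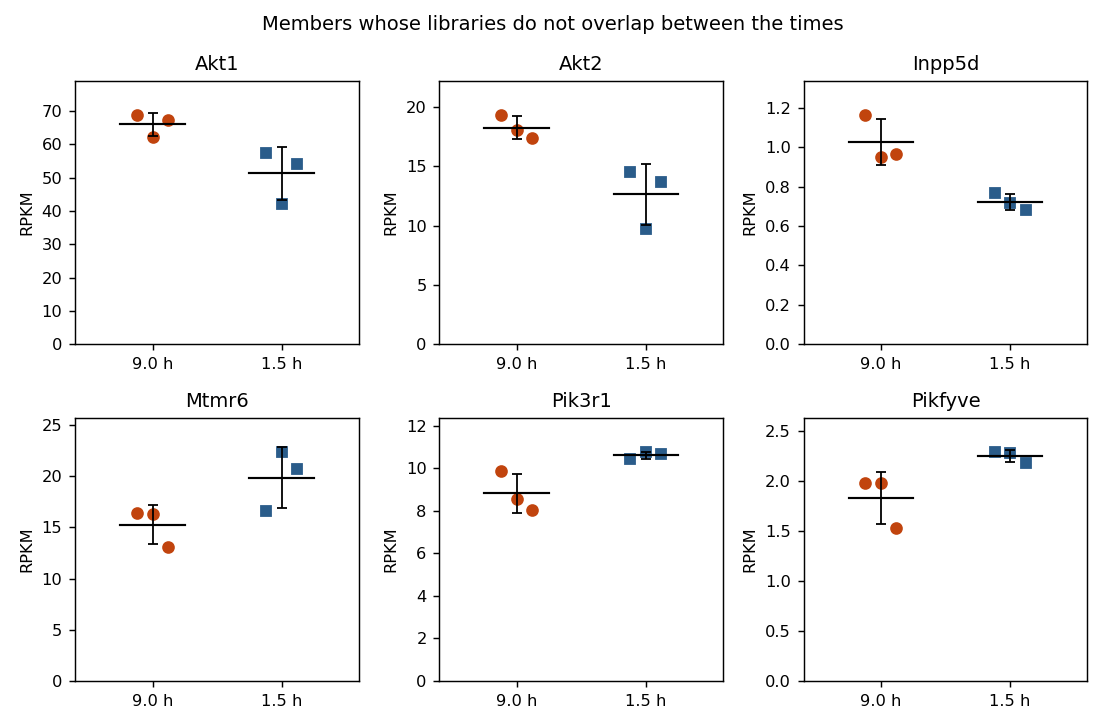
RPKM of the 6 members whose libraries did not overlap between the times, 9.0 h left of 1.5 h, with each library as a point and the mean ± SD as bars (n = 3). Akt1, Akt2 and the low-level Inpp5d were higher at 9.0 h, and Mtmr6, Pik3r1 and Pikfyve were lower. With no filter, 16.4% of 18862 genes did not overlap.

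Myotubularins remove the 3-phosphate from endosomal lipids and so oppose the class III kinase. Mtmr6, an active member of the family, had 16.4, 16.3 and 13.1 RPKM in 9.0 h libraries, against 16.6, 22.4 and 20.7 RPKM in 1.5 h libraries. Every 9.0 h library was below every 1.5 h library, although the highest 9.0 h library and 1.5 h replicate 1 nearly met. Its log2 fold change was -0.37 ± 0.16, with limma adjusted p = 0.419. Without 1.5 h replicate 1 it was -0.50 and passed (limma adjusted p = 0.0251, 9.23% of all tested genes called). Mtmr2, whose human counterpart is mutated in an inherited neuropathy, had 12.2, 12.3 and 9.11 RPKM at 9.0 h, against 8.93, 11.6 and 10.9 RPKM at 1.5 h, with overlap and a log2 fold change of 0.09. Mtm1, the gene of myotubular myopathy, was the lowest of the 3, with 1.75 ± 0.14 RPKM at 9.0 h and 2.12 ± 0.56 at 1.5 h, a log2 fold change of -0.23.

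Within the myotubularins the balance of Mtmr6 and Mtmr2 separated the times with little spread. The ratio of Mtmr6 to Mtmr2 was 1.34, 1.33 and 1.44 at 9.0 h, against 1.85, 1.93 and 1.90 at 1.5 h. It averaged 1.37 ± 0.06 at 9.0 h and 1.90 ± 0.04 at 1.5 h. The transcripts of Mtmr6 and Mtmr2 have GC contents of 43.3% and 45.4%. The log2 difference in the ratio of Mtmr2 to Mtmr6 was 0.47, and 0.44 with the GC trend of each library removed. This pair was picked out after its values were seen. It was 1 of the 9 without overlap among 64 ratios within a class (14.1%). The parts of tissue mix and GC content in this ratio were not tested. A processed copy, Gm4880, holds 1567 nt of near-identical sequence to Mtmr2, whose level is uncertain for that reason.

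PIKfyve makes the lipid with a second phosphate beside that of the class III product, needed for endosomes and lysosomes to mature. Pikfyve had 1.98, 1.99 and 1.53 RPKM in 9.0 h libraries, against 2.29, 2.28 and 2.19 RPKM in 1.5 h libraries. The groups did not overlap, and the 3 libraries at 1.5 h were close together. The log2 fold change was -0.29 ± 0.17 (limma adjusted p = 0.586), and -0.18 without 9.0 h replicate 3, the lowest library. Pik3r1 encodes a regulatory subunit that stabilises the class I catalytic subunits and holds them inactive. Pik3r1 had 9.86, 8.55 and 8.07 RPKM at 9.0 h, against 10.4, 10.8 and 10.7 RPKM at 1.5 h. These also did not overlap, with a log2 fold change of -0.27 ± 0.14 and limma adjusted p = 0.521.

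The promoters of these 5 genes are printed because they are the tested members whose libraries separated the times. Each line holds the 250 bases before the annotated start, on the strand of the gene, from RefSeq on GRCm38.p6, a later build than the mm9 named for the deposited values. Capitals mark matches, on either strand, to AGGTCA, the core of sites for the clock receptors REV-ERB and ROR, or to TGTTTAC, a core of FOXO sites. The windows are chr12:112674885-112675134 (minus strand) for Akt1, chr7:27591302-27591551 (plus) for Akt2, chr14:60264955-60265204 (plus) for Mtmr6, chr13:101768218-101768467 (minus) for Pik3r1 and chr1:65186435-65186684 (plus) for Pikfyve.
Akt1: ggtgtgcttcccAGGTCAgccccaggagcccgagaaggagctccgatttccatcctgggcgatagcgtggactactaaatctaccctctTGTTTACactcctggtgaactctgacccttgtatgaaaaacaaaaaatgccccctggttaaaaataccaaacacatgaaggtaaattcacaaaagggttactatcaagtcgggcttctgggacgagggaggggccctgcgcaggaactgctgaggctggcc
Akt2: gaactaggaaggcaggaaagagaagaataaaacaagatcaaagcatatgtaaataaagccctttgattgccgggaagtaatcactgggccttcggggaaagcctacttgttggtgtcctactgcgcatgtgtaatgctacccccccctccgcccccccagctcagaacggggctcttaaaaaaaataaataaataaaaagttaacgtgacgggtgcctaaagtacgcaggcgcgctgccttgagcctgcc
Mtmr6: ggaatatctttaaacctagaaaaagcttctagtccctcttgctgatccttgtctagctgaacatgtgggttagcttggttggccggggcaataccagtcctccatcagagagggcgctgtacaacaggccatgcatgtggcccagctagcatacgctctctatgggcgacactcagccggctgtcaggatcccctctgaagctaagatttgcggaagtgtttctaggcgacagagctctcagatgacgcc
Pik3r1: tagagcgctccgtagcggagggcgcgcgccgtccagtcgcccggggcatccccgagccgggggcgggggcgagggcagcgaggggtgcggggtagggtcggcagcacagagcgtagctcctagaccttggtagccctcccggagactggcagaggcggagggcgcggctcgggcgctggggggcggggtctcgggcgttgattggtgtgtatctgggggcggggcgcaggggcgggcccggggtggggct
Pikfyve: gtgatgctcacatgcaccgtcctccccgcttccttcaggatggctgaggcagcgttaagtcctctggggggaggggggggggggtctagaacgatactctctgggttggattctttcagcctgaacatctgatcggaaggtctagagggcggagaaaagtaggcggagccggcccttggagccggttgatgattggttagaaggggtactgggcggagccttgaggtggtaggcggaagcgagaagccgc
The Akt1 window held 1 match to each of these motifs and the other 4 windows held none of the motifs searched. GC content ran from 48.8% for Akt2 to 76.4% for Pik3r1, with 10 and 30 CG pairs. Of the 44 members 40 had a promoter in the table, and their median GC content was 58.8%, against 52.0% over 27025 promoters.

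AGGTCA occurred in 4 of the 40 member promoters, Akt1, Inpp4a, Pdpk1 and Pik3r4 (10.0%, against 13.8% of all 27025). TGTTTAC occurred in Akt1, Pi4k2a and Pi4ka (7.5%, against 3.1%). CACGTG, the E-box bound by clock activators, occurred in Pip5k1a and Pip5k1c (5.0%, against 6.0%). TGACGTCA, the cAMP response element, occurred in Inpp4a (2.5%, against 1.6%). The D-box forms TTATGTAA and TTACGTAA, bound by Dbp and its relatives, occurred in none, against 1.0% of all promoters. A match here is only a run of letters in a short window, and no match says no more than that.

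All 8 listed class I PI3K genes were detected, and the order of the 4 catalytic genes by mean level was the same at both times. Pik3ca, the ubiquitous catalytic subunit, had 10.1, 9.54 and 8.23 RPKM at 9.0 h, against 8.57, 11.9 and 9.50 RPKM at 1.5 h. It held 55.6% ± 3.1 of the summed catalytic level at 9.0 h and 56.4% ± 4.4 at 1.5 h, and Pik3cb, the other broadly expressed subunit, 34.2% ± 2.4 and 34.5% ± 2.4. Pik3cd and Pik3cg, mostly of white blood cells, made up the remainder, at 1.29 ± 0.27 and 0.42 ± 0.12 RPKM at 9.0 h, against 1.21 ± 0.34 and 0.39 ± 0.08 RPKM at 1.5 h. The 3 tested members had log2 fold changes between -0.10 and 0.09, with Pik3cg below the filter. Pik3r2, a regulatory subunit, was the highest PI3K gene of the eye, at 28.2, 23.5 and 28.2 RPKM in 9.0 h libraries, against 30.2, 18.6 and 22.1 RPKM in 1.5 h libraries, and the libraries overlapped (log2 fold change 0.19). Pik3r3, the third regulatory gene of this kind, had 12.4 ± 1.8 RPKM at 9.0 h and 14.6 ± 0.7 at 1.5 h (-0.24). Pik3r5, the adaptor of the Pik3cg product, was under the filter, at 0.84 ± 0.05 and 0.88 ± 0.20 RPKM at 9.0 h and 1.5 h.

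Class II and III kinases make lipids of endosomes. Pik3c2a, the widespread class II enzyme of clathrin-coated pits and cilia, had 2.35, 2.71 and 2.28 RPKM at 9.0 h, against 2.47, 3.46 and 3.22 RPKM at 1.5 h, and Pik3c2b was lower still (log2 fold changes -0.30 and -0.19). Pik3c2a overlapped through 1.5 h replicate 1 alone. It passed when libraries were weighted by their quality (log2 fold change -0.38, limma adjusted p = 0.0485), in a fit that called 16.6% of all tested genes. Pik3c2g was at 0.005 to 0.025 RPKM, about 0.7 to 2.1 reads, under the limit that a count of 0 allows for its length in every library. Summed over the class, the level was 4.08, 3.92 and 3.65 RPKM at 9.0 h, against 4.45, 4.79 and 4.88 RPKM at 1.5 h, without overlap. Pik3c3, the class III kinase of autophagy and phagosome maturation, had 9.18, 8.11 and 7.95 RPKM at 9.0 h, against 7.78, 10.7 and 8.79 RPKM at 1.5 h. Its partner Pik3r4 had log2 fold change -0.10, as did Pik3c3, and Pik3c3 held 62.2% of the pair at both times.

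Phosphoinositide 4-kinases make the precursor of the plasma membrane lipids. All 4 had log2 fold changes just above 0, between 0.02 and 0.13, with overlap in each. Pi4k2a, the enzyme of endosomes and the trans-Golgi network, was highest, at 22.7, 19.4 and 18.3 RPKM in 9.0 h libraries, against 22.7, 15.0 and 18.5 RPKM in 1.5 h libraries. Pi4ka, which serves the plasma membrane, had 14.9 ± 2.5 RPKM at 9.0 h and 14.7 ± 2.1 at 1.5 h. The Golgi enzyme Pi4kb had 10.1 ± 0.7 RPKM at 9.0 h, against 9.6 ± 3.4 at 1.5 h. Pi4k2b was lowest, at 3.58 ± 0.39 RPKM at 9.0 h and 3.59 ± 0.92 at 1.5 h. Pi4k2a made up 41.2% ± 1.0 of the summed level at 9.0 h and 40.1% ± 2.2 at 1.5 h.

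PIP kinases complete the substrate of phospholipase C and of class I PI3K. Pip5k1c, the type I enzyme prominent at synapses, had 40.5, 31.7 and 35.97 RPKM at 9.0 h, against 38.3, 26.1 and 30.1 RPKM at 1.5 h. It took 63.6% ± 2.8 of the type I level at 9.0 h and 57.9% ± 6.2 at 1.5 h. Pip5k1b had 9.42, 10.0 and 8.68 RPKM at 9.0 h, against 9.04, 14.8 and 11.4 RPKM at 1.5 h. Its log2 fold change was -0.30 (limma adjusted p = 0.6). Without 1.5 h replicate 1, the only 1.5 h library inside the 9.0 h range, it was -0.47 with limma adjusted p = 0.0448. That fit called 9.23% of all tested genes. Pip5k1a lay at 11.2 ± 0.7 and 10.8 ± 1.6 RPKM at 9.0 h and 1.5 h. Type II kinases, which use the 5-phosphate form, were led by Pip4k2c, a regulator of vesicle traffic with weak activity, at 47.5, 42.6 and 45.3 RPKM at 9.0 h, against 54.95, 41.7 and 46.8 RPKM at 1.5 h. It held 72.3% of the type II level at 9.0 h and 72.0% at 1.5 h, and Pip4k2a and Pip4k2b had log2 fold changes of 0.07 and -0.21, with overlap.

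Phosphatases that remove the 5-phosphate were the largest class and none separated the times among its 9 tested members. Inpp5k, an endoplasmic reticulum enzyme whose human mutations cause muscle disease with cataract, was the highest gene of the set on average, at 57.5, 59.5 and 60.0 RPKM in 9.0 h libraries, against 63.8, 63.5 and 51.3 RPKM in 1.5 h libraries. Its log2 fold change was -0.01, with a 95% interval from -0.32 to 0.30. Inpp5a, which acts on soluble inositol phosphates, followed at 29.4 ± 2.2 RPKM at 9.0 h and 25.9 ± 4.4 at 1.5 h (log2 fold change 0.19). Synj1, which strips lipids from recycling synaptic vesicles, had 14.4 ± 1.2 RPKM at 9.0 h and 16.8 ± 1.8 at 1.5 h (-0.22). Synj2, its relative outside synapses, had 3.73 ± 0.60 and 4.00 ± 0.34 RPKM at 9.0 h and 1.5 h.

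The eye disease genes of the class were also close between the times. Ocrl, mutated in a human syndrome of cataract and kidney disease, had 8.86 ± 1.04 RPKM at 9.0 h and 9.35 ± 0.62 at 1.5 h (log2 fold change -0.08), and its paralog Inpp5b 7.60 ± 0.34 and 8.46 ± 0.79 (-0.15). Inpp5e, a ciliary enzyme mutated in human ciliopathies of brain and retina, had 6.50 ± 0.46 and 6.90 ± 1.58 RPKM at 9.0 h and 1.5 h (-0.06). Inppl1, the widely expressed SHIP enzyme, had 8.56 ± 0.92 and 9.33 ± 2.08 RPKM (-0.11), and Inpp5j 2.97 ± 0.27 and 2.66 ± 0.40 RPKM (0.16) at the same times.

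Inpp5d, the SHIP enzyme of blood cells, was the fourth member under the filter and had 1.16, 0.95 and 0.97 RPKM at 9.0 h, against 0.77, 0.71 and 0.68 RPKM at 1.5 h. Every 9.0 h library was above every 1.5 h library, on 43.8 to 182.4 estimated reads. With no filter its log2 fold change was 0.45 ± 0.19 (limma adjusted p = 0.471, 0.154% of 18862 genes called). In that fit the libraries did not overlap between the times for 16.4% of the genes. The sum of the 6 blood and immune markers overlapped between the times, at 103.4 to 122.1 RPKM at 9.0 h and 111.7 to 152.8 RPKM at 1.5 h. Single markers were not compared, and the part of blood cells in the Inpp5d difference was not tested.

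The remaining phosphatases were below 0 on the log2 scale with overlap. Sacm1l, the SAC phosphatase of endoplasmic reticulum and Golgi, had 13.4, 17.3 and 11.9 RPKM at 9.0 h, against 11.3, 19.0 and 16.1 RPKM at 1.5 h, and both times spread widely. Inpp5f, an endosomal SAC phosphatase in spite of its name, had 7.92 ± 0.40 RPKM at 9.0 h and 9.54 ± 2.08 at 1.5 h (log2 fold change -0.24). Inpp4a, which removes the 4-phosphate from a PI3K product, had 3.70, 2.93 and 3.44 RPKM at 9.0 h, against 4.45, 3.58 and 3.32 RPKM at 1.5 h. Inpp4b, its paralog, had 2.35 ± 0.44 and 2.73 ± 0.60 RPKM at 9.0 h and 1.5 h, and the log2 fold changes of the pair were -0.16 and -0.21.

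**Figure D3:**
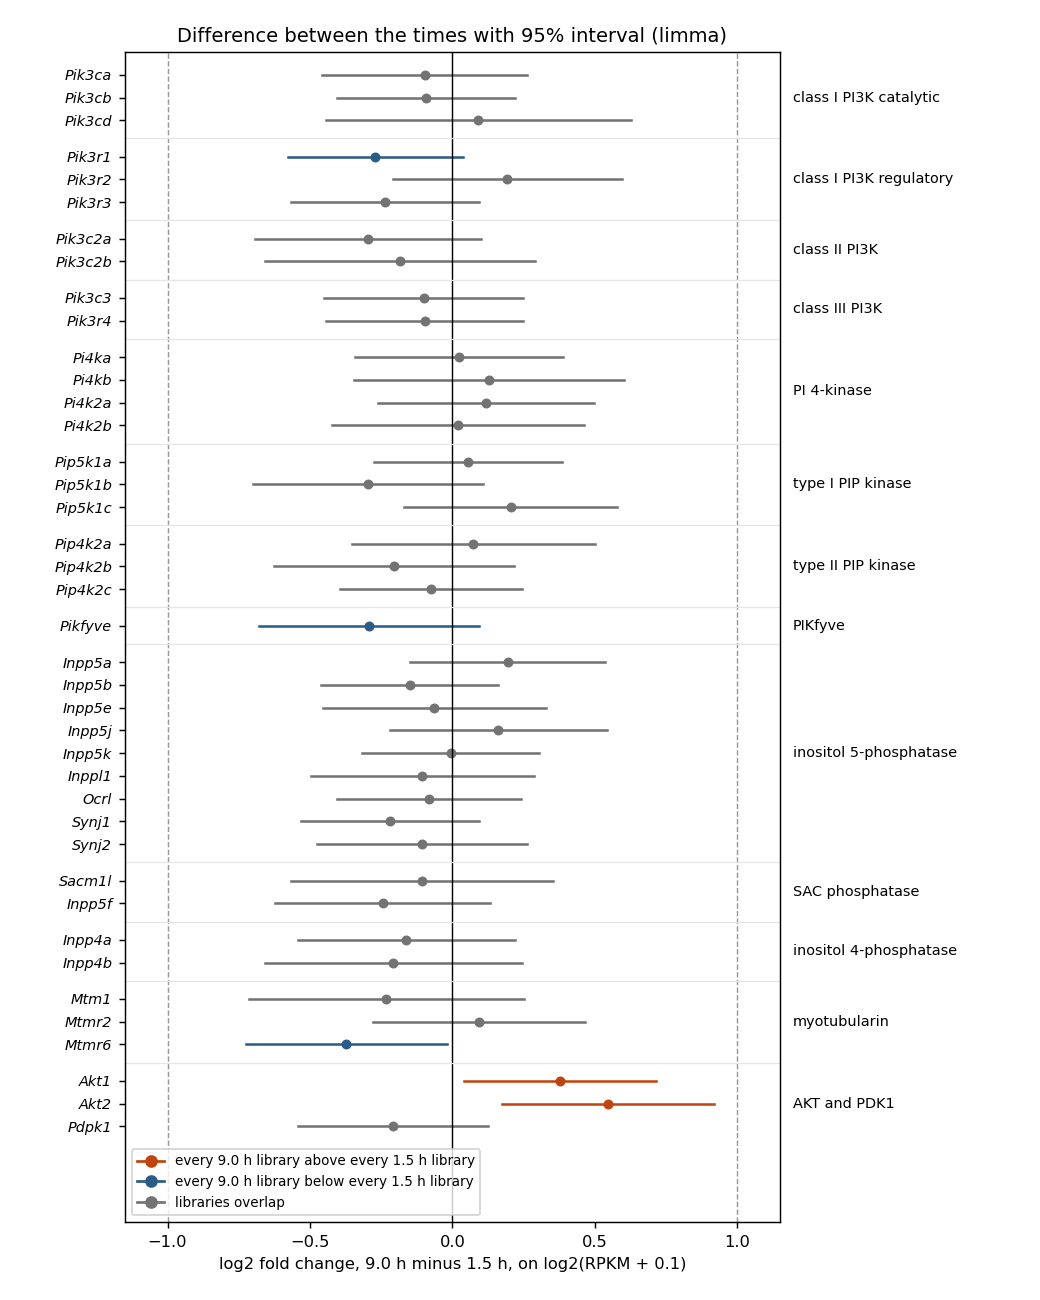
Log2 fold change, 9.0 h minus 1.5 h, of the 40 tested members with unadjusted 95% intervals from limma, by enzyme class, with dashed lines at a 2-fold change. Every interval lies inside the dashed lines, and those of Akt1, Akt2 and Mtmr6 do not include 0.

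Class by class, the medians lay near 0. Class medians of the log2 fold change ran from -0.29 for Pikfyve alone to 0.07 for the 4-kinases, apart from the AKT and PDK1 class at 0.38. Lipid kinases and their regulatory subunits had a median of -0.09 over 21 tested genes, with 9 above 0, and phosphatases -0.11 over 16, with 3 above 0. Summed over genes, the 19 catalytic kinase genes had 215.4, 189.9 and 190.6 RPKM at 9.0 h, against 221.2, 188.1 and 192.7 RPKM at 1.5 h. The 17 phosphatase genes had 205.4, 203.4 and 185.7 RPKM at 9.0 h, against 199.5, 221.0 and 202.6 RPKM at 1.5 h. Kinase and phosphatase transcripts were thus near parity, with a ratio of 1.00 ± 0.06 at 9.0 h and 0.97 ± 0.13 at 1.5 h, and the libraries overlapped. The AKT and PDK1 sum, 99.5, 90.5 and 93.3 RPKM at 9.0 h against 84.0, 62.7 and 79.9 RPKM at 1.5 h, did not overlap. Akt1 held 70.0% of this sum at 9.0 h and 67.85% at 1.5 h, and the class median is its own value. Pdpk1 went the other way (-0.21). Class II PI3K and Pikfyve also did not overlap as class sums, and were lower at 9.0 h.

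**Figure D4:**
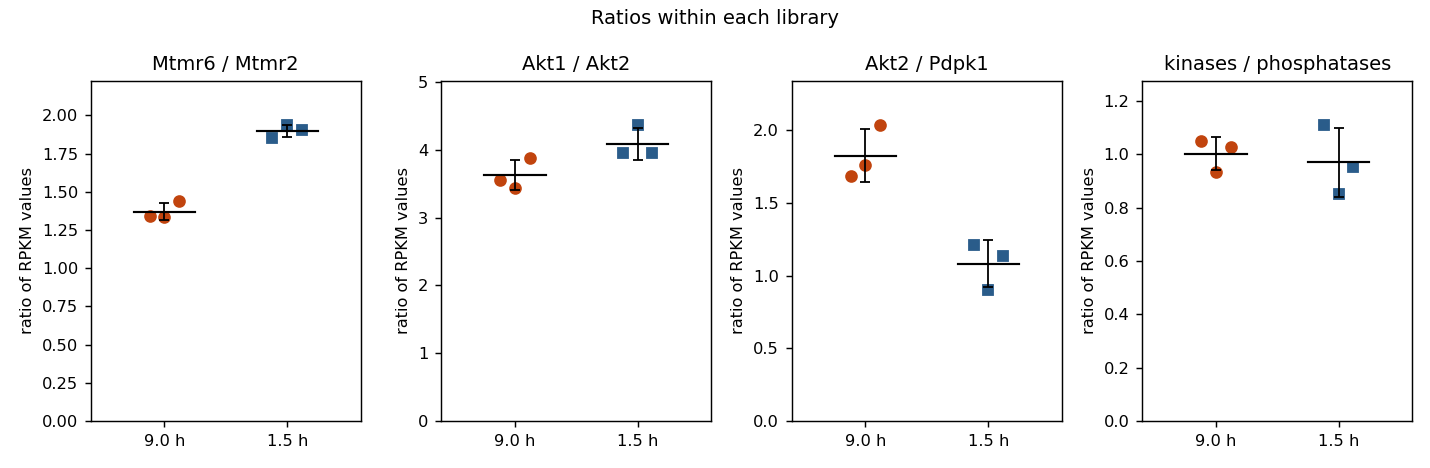
Ratios of RPKM values within each library, 9.0 h left of 1.5 h, with each library as a point and the mean ± SD as bars (n = 3). Mtmr6 to Mtmr2 and Akt1 to Akt2 are lower at 9.0 h, Akt2 to Pdpk1 is higher, and the ratio of summed kinases to summed phosphatases overlaps.

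Levels spanned the set widely, with 17 members at 10 RPKM or more on average, 23 from 1 to 10 RPKM and 4 below 1 RPKM. Inpp5k and Akt1 led at 59.3 and 58.7 RPKM over all libraries, with overlapping ranges, and Pip4k2c followed at 46.5 RPKM. Pip4k2c did not overlap with the next gene, Pip5k1c, at 33.8 RPKM. From there down to Pik3r4 at 5.30 RPKM each gene overlapped the next in the order, so their exact ranks are not resolved. Exons of 13 members overlap a gene on the other strand and those of 3 a gene on the same strand in GENCODE M21, and the strand setting of the counting is not given in the sources used here. Besides Akt2 and Mtmr2, Pik3cb has near-identical copies elsewhere.

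Transcript GC content varied with the fold changes of the members. Members below 46% GC had a median log2 fold change of -0.21 (2 of 13 above 0), those from 46% to 53% had -0.10 (4 of 13) and those at 53% or more had 0.10 (8 of 14). All tested genes showed the same order, with medians of -0.11, -0.01 and 0.09. Across the 40 members GC content and log2 fold change correlated with Pearson's r = 0.63 and Spearman's rho = 0.64, and across 13378 tested genes with 0.27 and 0.35. These are descriptions across genes that share 6 libraries, and genes are not independent replicates. Within members the deviation from the mean followed GC content with r = 0.68, -0.20 and 0.75 in 9.0 h libraries and 0.61, -0.85 and -0.64 in 1.5 h libraries, so it differed between libraries of the same time. With a GC trend removed from each library, an alternative chosen after seeing the data, the log2 fold changes were 0.25 for Akt1, 0.47 for Akt2, -0.28 for Mtmr6, -0.19 for Pik3r1 and -0.20 for Pikfyve. Again 5 members did not overlap, against 21.1% of all tested genes, with Akt1, Akt2 and Mtmr6 among them, Pik3c2a and Inpp5b in place of Pik3r1 and Pikfyve, and no member was called (0.2% of all tested genes). After this removal the members kept a correlation with GC content, with Pearson's r = 0.26 and Spearman's rho = 0.21. Across the 13378 tested genes these were -0.02 and -0.006. The part of GC content in the differences was not tested further.

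**Figure D5:**
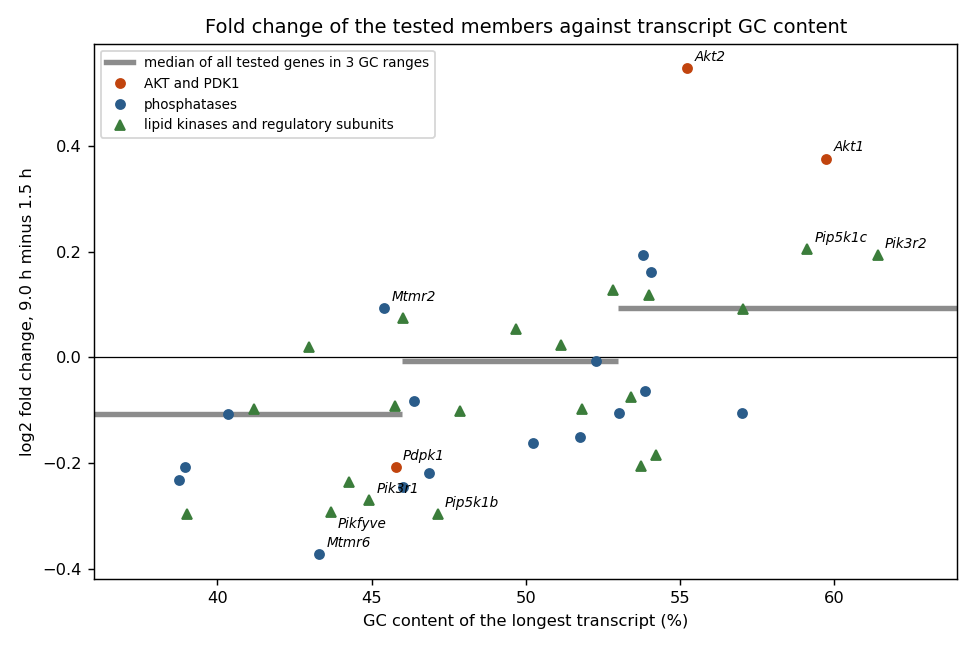
Log2 fold change, 9.0 h minus 1.5 h, of the 40 tested members against the GC content of their longest transcript, with the median of all tested genes in 3 GC ranges as grey bars. Akt1 and Akt2 lie above the bar of their range, at 59.7% and 55.2% GC, and Mtmr6 below its own, at 43.3%.

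Other genes of the pathway, 41 listed and 40 tested, were likewise without a call, with a median log2 fold change of -0.10, 12 above 0 and 28 below. At an unadjusted p of 0.05, 1 passed, and 6 did not overlap (15.0%, against 18.2% of all tested genes). Among 6 genes of inositol and phosphatidylinositol synthesis the median was -0.09. Cds1, a synthase of the precursor CDP-diacylglycerol, had 50.2 ± 3.8 RPKM at 9.0 h and 51.1 ± 1.9 at 1.5 h. Cdipt, which joins that precursor to inositol, had 52.1 ± 3.6 and 46.6 ± 3.1 RPKM at 9.0 h and 1.5 h. Among 6 transfer proteins the median was -0.19, with Pitpnm1, the counterpart of fly retinal degeneration B, at 99.4 ± 16.8 RPKM at 9.0 h and 95.8 ± 38.5 at 1.5 h. Pitpna, a soluble transfer protein, had 42.8 ± 1.7 and 42.1 ± 5.3 RPKM at the same times. Among 13 other myotubularins and PIKfyve partners the median was -0.08, with Mtmr3 and Sbf1 highest, at 25.4 ± 3.3 and 16.6 ± 2.6 RPKM at 9.0 h and 22.1 ± 3.9 and 16.5 ± 6.4 RPKM at 1.5 h.

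PI3K adaptors and AKT targets had a median of -0.10 over 15 tested genes, 5 above 0 and 10 below. Gsk3a, a kinase that AKT inhibits, had 52.3, 49.6 and 51.6 RPKM at 9.0 h, against 50.0, 35.1 and 41.1 RPKM at 1.5 h, with overlap (log2 fold change 0.30). Its paralog Gsk3b, named after its values were seen, had 8.66, 8.45 and 8.87 RPKM at 9.0 h, against 11.3, 11.6 and 10.8 RPKM at 1.5 h. For Gsk3b the libraries did not overlap, with a log2 fold change of -0.37 ± 0.13 and limma adjusted p = 0.332. It was the gene of this list with an unadjusted p under 0.05. Rheb, the small GTPase that activates the growth kinase Mtor, had 39.9 ± 5.7 RPKM at 9.0 h and 40.7 ± 9.6 at 1.5 h.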

How the data were processed

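The authors deposited 1 table of RPKM values per library. The unit was read from the values, which were not whole numbers and, multiplied by transcript length in genes with 1 transcript, fell within 0.1 read of whole multiples of a step in 71.5% to 76.2% of low values. The submitters' processing notes name GSNAP, HTSeq and build mm9. Versions, annotation and strand setting: not given in the sources used here. The smallest such step gave the read totals.

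The 13490 genes that reached 1 RPKM in no fewer than 3 libraries entered the test with limma 3.58.1 in R 4.3.3 on log2(RPKM + 0.1), with trended and robust eBayes, two-sided, and Benjamini-Hochberg adjustment over all tested genes. A single gene cannot go below p = 0.1 in an exact permutation test of 3 against 3. The members, enzyme classes, marker and pathway lists were chosen with earlier results of these data known. Values in every library are given for members whose libraries do not overlap and for the highest member of each class, and of other pathway lists the highest pair is named. Near-identical copies were sought with minimap2 2.31 in GENCODE M21 transcripts (at least 200 nt and 95% identity). GC content of the longest transcript was available for 99.2% of tested genes. Alternatives were other pseudocounts, no filter, other scalings, library weights, a replicate block, each library left out and a GC trend removed.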

Additional observations from a re-analysis of the deposited data

How the results depend on the processing

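The count of members called stayed at 0 in each direction under pseudocounts of 0.01 and 1, no filter, quantile normalization, median scaling, the replicate block and removal of a GC trend, chosen after seeing the data, alone or with the replicate block (0.445% of all tested genes called). With library weights 1 member was called higher (Akt2) and 2 lower (Pik3c2a and Mtmr6), in a fit that called 16.6% of all tested genes. With 1 library left out the counts ranged from 0 to 2 in each direction, the 2 higher (Akt1 and Akt2) and 2 lower (Pip5k1b and Mtmr6) coming without 1.5 h replicate 1, where 9.23% of all tested genes were called. With 1 library left out, the count of members without overlap ranged from 6 to 16. It was 6 (28.8% of all tested genes) when 1.5 h replicate 2 was absent. Without 9.0 h replicate 2 or 9.0 h replicate 3 it was 7 (25.8% and 23.0%). It was 16 (38.2% of all tested genes) when 1.5 h replicate 1 was absent, 9 (26.1%) when 1.5 h replicate 3 was, and 11 (27.1%) when 9.0 h replicate 1 was. Of the 40 tested members, 21 kept 1 sign of the fold change under all 15 alternatives, while each of the others took the other sign at least once. Akt1, Akt2, Mtmr6, Pik3r1 and Pikfyve were among the 21, which adds no support for them. Because their libraries did not overlap, leaving out a library, weighting, another pseudocount or the replicate block could not reverse their sign.

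The median over the members lay between -0.152 and -0.039 with 1 library left out. Class medians that moved beyond the spread between libraries were, as ranges with 1 library left out, -0.283 to -0.111 for class I PI3K regulatory, -0.039 to 0.2 for PI 4-kinase, -0.017 to 0.169 for type I PIP kinase, -0.169 to 0.006 for type II PIP kinase, -0.146 to 0.047 for inositol 5-phosphatase, -0.462 to -0.098 for myotubularin. Quantile normalization moved the type II PIP kinases to -0.187. Why these moved was not tested. The log2 difference in the kinase to phosphatase ratio, 0.054, lay between -0.036 and 0.155 with 1 library left out.

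Same-numbered libraries of the times deviated together with r = 0.347, 0.484 and -0.215 over 13490 genes, so the numbers were not taken to pair them. With the replicate block no member was called, 1.05% of all tested genes were, and Akt2 had limma adjusted p = 0.0921. Replicate 3 of each time correlated best with another number.

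Depth limits the low members: 1.5 h replicates 2 and 3 had less than the reads of any other library, and Pik3c2g lay under 3 reads throughout.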
